A study of Bos taurus with 12 samples.

Results

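The genes described here copy the genome before a cell divides. A list of 45 genes of the G1/S transition and of DNA replication was matched by symbol to the Entrez gene IDs of the count files, and all 45 were found among 30336 gene IDs. They were measured by RNA sequencing in liver biopsies of Holstein heifer calves at 4 d of age, in 12 libraries. Dams of the 6 CON calves received a control close-up diet (15.3% crude protein, with an energy content of 1.47 Mcal per kg of dry matter) without added methionine for the last 28 d before calving. Dams of the 6 MET calves received that same diet plus methionine protected from rumen breakdown by ethyl cellulose (Mepron), and all calves were fed and managed alike once born. The calves were thus exposed through the dam and were not treated themselves.

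Replication starts from sites bound by the origin recognition complex (ORC). In G1, ORC together with CDC6 and CDT1 loads the ring of MCM2 to MCM7 onto DNA, and at the start of S phase CDC45, the GINS complex, MCM10 and DONSON help turn that ring into the active helicase. Primase and the DNA polymerases then copy both strands, with PCNA as the sliding clamp, RFC as the clamp loader, RPA on single-stranded DNA, FEN1 and LIG1 joining the lagging strand, and ribonucleotide reductase (RRM1 and RRM2) making deoxyribonucleotides. Cyclin E, as CCNE1 or CCNE2, activates CDK2 at the G1/S boundary, and E2F1 is a transcription factor that drives many of these genes in dividing cells. Hepatocytes of newborn animals still divide, whereas most hepatocytes of adults rest outside the cycle.

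Between 8277789 and 10397604 reads were counted per library. The libraries of CON replicates 1 and 4 were nearly identical (chi-square per gene 1.33), as were those of MET replicates 1 and 3 (1.24), against 25.1 to 133 for the other 64 pairs. Each of these pairs was therefore counted as 1 sample, which leaves 5 samples per diet, and the tests were run over the 12 libraries and again over the 10 samples. The first index was shared by all CON libraries and differed from that of all MET libraries, and its effect cannot be told apart from diet. The tissue label was met by the hepatocyte markers, of which 13 of 13 counted were expressed and whose summed level was 160612 to 260626 CPM (counts scaled to a common library total) in each sample. In bulk tissue, fewer dividing cells and less RNA per cell cannot be told apart.

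Of the 45 genes, 43 had enough reads to be tested. Only CCNE2 passed FDR ≤ 0.10 over the 12 libraries by edgeR's quasi-likelihood test, and it fell in MET, against 4.41% of all 13212 genes tested. The study lists CCNE2 as a differentially expressed gene from these same libraries, so that its direction is not independent evidence. Over the 10 samples none of the 43 passed FDR ≤ 0.10 with edgeR, as was so for 0% of all 13242 genes, and DESeq2 called 2 (CCNE2 and RRM2, both lower in MET) of the 36 to which it gave an adjusted p, against 5.71% of all genes. Before adjustment, edgeR put 7 of the 43 genes (16.3%) at an unadjusted p ≤ 0.05 over the 10 samples, and 16.3% of all genes. Of these 7, ORC6, POLD2, RFC2 and FEN1 were higher in MET (7.83% of all genes) and MCM6, RRM2 and CCNE2 were lower (8.52% of all genes). With library size as the only scaling, 5 of 7 were higher, and 12.8% of all genes passed. Without MET replicate 5 the count was 4, of which 1 was higher, and 14.5% of all genes passed. The 5 CON and 5 MET samples did not overlap for CCNE2 alone, against 3.71% of all genes. The median log2 fold change (MET minus CON) of the 43 genes was -0.06, with 24 below 0 and 19 above, beside -0.003 over all genes. Apart from the count with library size as the only scaling, which was above it, each of these shares lay close to or below that of all genes tested.

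**Figure D1:**
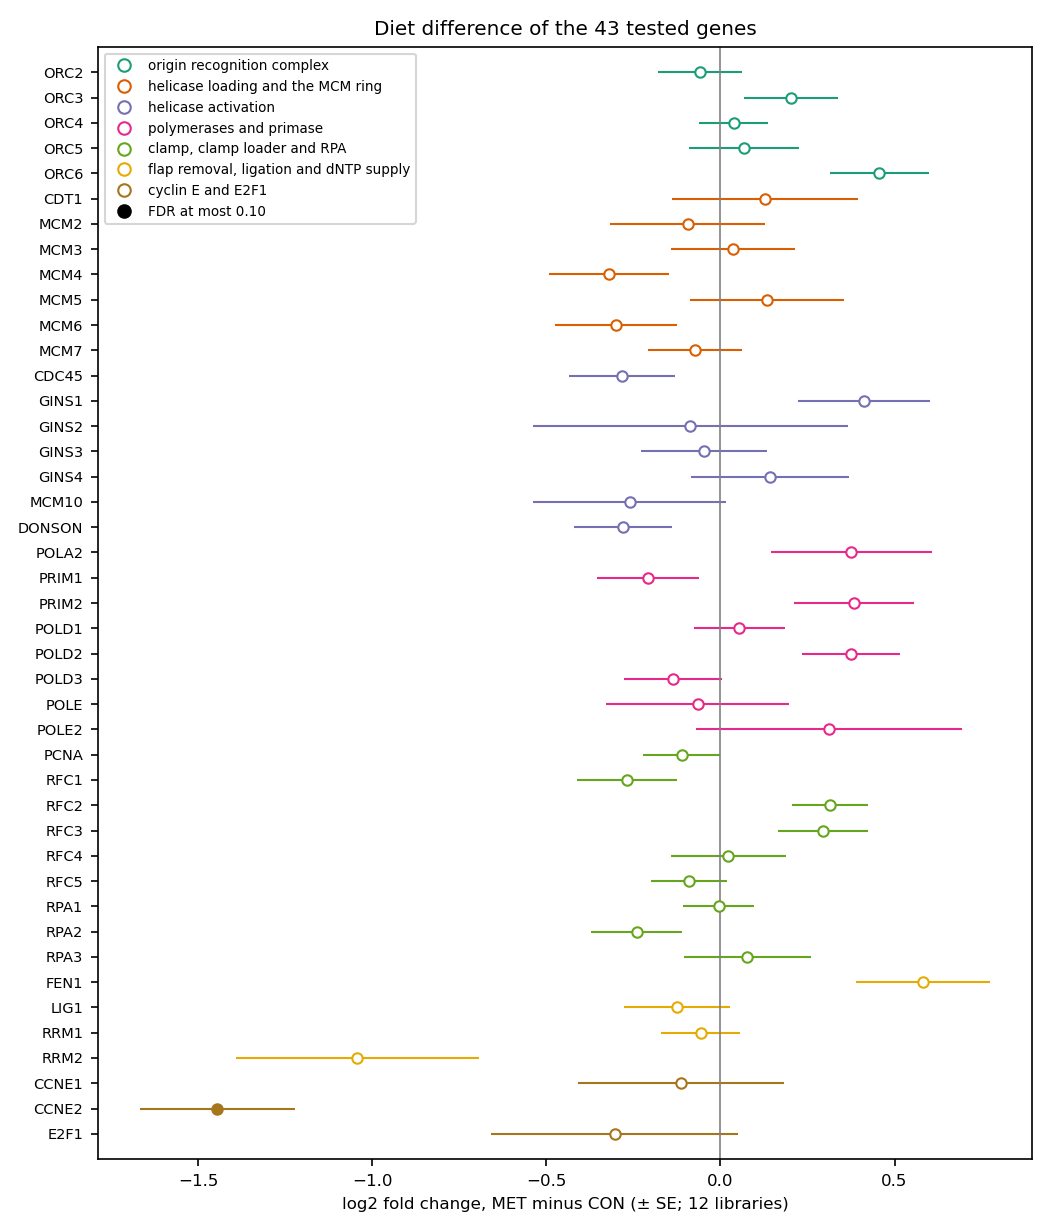
Log2 fold change (MET minus CON, x axis) of the 43 tested genes over the 12 libraries, by role; points are edgeR estimates, bars ± 1 SE, and the filled point passed FDR ≤ 0.10. Most points lie between -0.4 and 0.6, and the 2 farthest to the left are RRM2 (-1.04) and CCNE2 (-1.44).

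The genes differed far more in level than between the diets. Levels are compared per kb of exonic length, as means of the 10 samples. RRM1, the large subunit of ribonucleotide reductase, was highest at 33.5 CPM per kb. MCM7 (12.3), RPA3 (11.3), PCNA (9.97), RPA1 (9.82) and DONSON (9.41 CPM per kb) came next. The lowest were ORC1 (0.181 CPM per kb) and CDC6 (0.215 CPM per kb), the 2 genes below the filter, which were counted with 1 to 12 and 2 to 12 reads per library. A level of 3 reads equals 0.277 to 0.377 CPM. ORC1 was at 0.541 ± 0.266 CPM in CON and 0.619 ± 0.291 CPM in MET (SD, n = 5 each), with an exact permutation p of 0.659. CDC6 was at 0.936 ± 0.308 and 0.631 ± 0.307 CPM (SD, n = 5 each), with an exact permutation p of 0.167, so that no difference was detectable for either at this depth. CDT1, the partner of CDC6 in helicase loading, was also low, at 0.546 CPM per kb and 7 to 19 reads per library. GINS4, MCM10, CCNE1 and POLE2 were also below 0.9 CPM per kb.

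**Figure D2:**
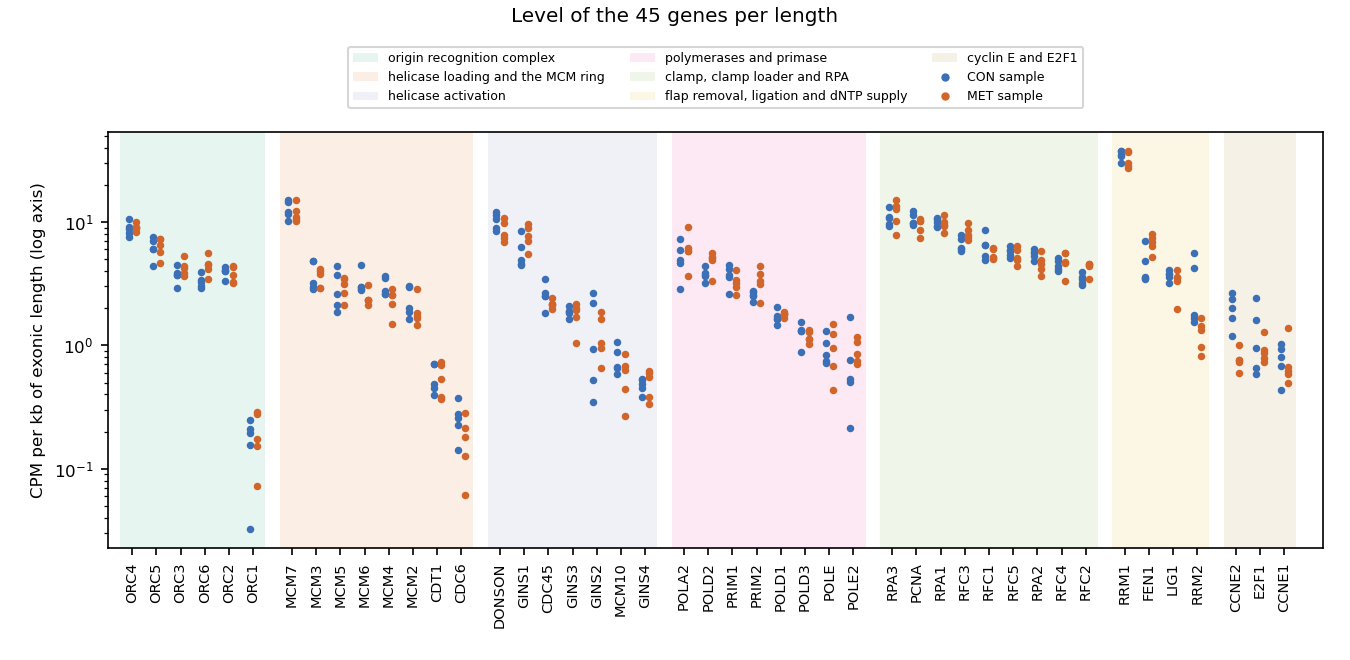
CPM per kb of exonic length (y axis, log scale) of the 45 genes, sorted by level within each role; each point is 1 of 5 CON (blue) or 5 MET (orange) samples. RRM1 and MCM7 lie above the other genes of their roles, and ORC1 and CDC6 lie lowest.

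Subunits of 1 complex did not share 1 level. Within the MCM ring, whose 6 subunits are present once each, MCM7 was the highest in 10 of 10 samples and its mean level per kb was 5.8 times that of MCM2, while MCM3, the next highest, was at 3.64 CPM per kb. Within ORC, ORC4 was the highest in 10 of 10 samples at 8.96 CPM per kb. GINS1 exceeded GINS4 by 9.32 to 29.2 times per kb across the samples. The 5 RFC subunits lay closer together, with RFC3 at 7.42 and RFC2 at 3.86 CPM per kb. RRM1 exceeded its partner RRM2 by 6.19 to 22.7 times per kb in CON samples and by 22.1 to 33.2 times in MET samples, and these ranges overlapped only slightly. CCNE2 exceeded CCNE1 per kb by 1.78 to 3.28 times in the CON samples, whereas the ratio was 0.548 to 1.71 in the MET samples.

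Among the 6 origin recognition genes, ORC6 had the lowest p. ORC6, a small subunit needed for loading the helicase, lies on chromosome 18 from 15066685 to 15075289 of the UMD 3.1.1 assembly, plus strand. Its level was 5.44 (replicates 1 and 4), 6.03, 5.83, 5.21 and 7.06 CPM in the CON samples and 8.21 (replicates 1 and 3), 7.42, 6.22, 10.1 and 7.94 CPM in the MET samples. The MET samples were the higher ones apart from MET replicate 4, which lay below the highest CON sample. The mean was 5.91 ± 0.715 CPM in the CON samples and 7.97 ± 1.40 CPM in the MET samples (SD, n = 5 each). The log2 fold change of ORC6 was 0.46 (SE 0.14, adjusted p = 0.11) over the 12 libraries and 0.43 (SE 0.16, adjusted p = 0.23) over the 10 samples, and the exact two-sided permutation p over the samples was 0.0159. ORC2, ORC3, ORC4 and ORC5 had log2 fold changes of -0.06 to 0.20, and none passed the test.

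Of the 8 genes for helicase loading and the ring, none passed FDR ≤ 0.10 and 1 of 7 tested reached an unadjusted p ≤ 0.05 over the 10 samples. That gene was MCM6, on chromosome 2 from 61821930 to 61856346, plus strand. MCM6 was at 7.02 (replicates 1 and 4), 7.17, 11.1, 7.40 and 7.47 CPM in CON and at 7.74 (replicates 1 and 3), 5.86, 5.87, 5.26 and 5.77 CPM in MET. CON replicate 3 stood above all others, and 4 MET samples lay below every CON sample while the pooled sample of MET replicates 1 and 3 lay among them. Its mean was 8.03 ± 1.72 CPM in the CON samples and 6.10 ± 0.949 CPM in the MET samples (SD, n = 5 each). The log2 fold change of MCM6 was -0.30 (SE 0.18, adjusted p = 0.35) over the 12 libraries and -0.38 (SE 0.17, adjusted p = 0.30) over the 10 samples, with an exact permutation p of 0.0397. Without CON replicate 3 it was -0.18.

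The other ring subunits had values on both sides of 0. MCM4 was at 6.31 ± 1.10 CPM in CON and 4.84 ± 1.10 CPM in MET (SD, n = 5 each), a log2 fold change of -0.32 (SE 0.17) over the 12 libraries and -0.37 over the 10 samples. MCM2 was at 7.93 ± 2.27 and 6.59 ± 1.92 CPM (SD, n = 5 each) with log2 fold changes of -0.09 (SE 0.22) and -0.24 in the same order. MCM3 was at 11.2 ± 3.02 and 10.7 ± 1.78 CPM (SD, n = 5 each) and its log2 fold change turned from 0.04 (SE 0.18) over the 12 libraries to -0.05 over the 10 samples. MCM5 had 7.03 ± 2.55 and 7.11 ± 1.39 CPM (SD, n = 5 each) and log2 fold changes of 0.13 (SE 0.22) and 0.04. MCM7 had 35.8 ± 5.80 and 33.2 ± 5.64 CPM (SD, n = 5 each) and log2 fold changes of -0.07 (SE 0.13) and -0.11. None of these differences passed the test. CDT1 was at 1.16 ± 0.314 CPM in CON and 1.15 ± 0.358 CPM in MET (SD, n = 5 each).

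The 7 genes of helicase activation held no gene past either threshold. GINS1, a subunit of the GINS complex that bridges helicase and polymerase, was at 12.5 to 23.2 CPM in CON and 15.2 to 26.8 CPM in MET, with a log2 fold change of 0.41 (SE 0.19, adjusted p = 0.24) over the 12 libraries and 0.43 over the 10 samples. CDC45 (-0.28, SE 0.15), DONSON (-0.28, SE 0.14) and MCM10 (-0.26, SE 0.28) had log2 fold changes below 0 over the 12 libraries, and over the 10 samples theirs were -0.26, -0.28 and -0.38. GINS2, with 4 to 25 reads per library, varied from 0.415 to 3.14 CPM among the CON samples alone, so that its SE was 0.45. GINS3 and GINS4 were at -0.05 and 0.14 on the log2 scale.

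Of 8 polymerase and primase genes, none passed FDR ≤ 0.10, and their median log2 fold change was 0.18, with 5 above 0. POLD2, the second subunit of polymerase delta, which copies the lagging strand, lies on chromosome 4 from 77873883 to 77881765, plus strand. POLD2 was at 8.40 (replicates 1 and 4), 9.43, 6.86, 7.92 and 7.99 CPM in CON and at 11.2 (replicates 1 and 3), 11.03, 7.25, 10.6 and 12.1 CPM in MET. All MET samples except replicate 4 lay above every CON sample. Its mean was 8.12 ± 0.925 CPM in the CON samples and 10.4 ± 1.86 CPM in the MET samples (SD, n = 5 each). POLD2 had a log2 fold change of 0.37 (SE 0.14, adjusted p = 0.16) over the 12 libraries and 0.37 (SE 0.16, adjusted p = 0.28) over the 10 samples, with an exact permutation p of 0.0476. Of the alternative fits tried, 1 gave POLD2 an FDR ≤ 0.10, the one without MET replicate 4 (adjusted p = 0.0955).

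The subunits of the same enzymes were not uniform. The catalytic subunit POLD1 was at 4.97 ± 0.623 CPM in CON and 5.24 ± 0.199 CPM in MET (SD, n = 5 each), and POLD3 at 6.92 ± 1.32 and 6.37 ± 0.649 CPM (SD, n = 5 each). PRIM2, the large primase subunit, had a log2 fold change of 0.38 (SE 0.17, adjusted p = 0.23) and PRIM1, the catalytic one, of -0.21 (SE 0.15, adjusted p = 0.45), against 0.40 and -0.19 over the 10 samples. POLA2 varied from 8.82 to 22.2 CPM in CON and from 11.3 to 27.8 CPM in MET, the highest being the sample of MET replicates 1 and 3. POLE, which copies the leading strand, was at 7.75 ± 2.09 and 7.94 ± 3.47 CPM (SD, n = 5 each), and POLE2 was counted in 3 to 26 reads per library.

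The 9 genes of clamp, clamp loader and RPA had a median log2 fold change of -0.01, and none passed FDR ≤ 0.10. PCNA, which is often used as a marker of S phase, was at 18.8 (replicates 1 and 4), 22.5, 24.6, 19.4 and 19.5 CPM in CON and at 20.9 (replicates 1 and 3), 20.1, 17.3, 14.9 and 20.3 CPM in MET. CON replicates 2 and 3 were highest and MET replicates 4 and 5 lowest, and the remaining samples overlapped. PCNA had a log2 fold change of -0.11 (SE 0.11, adjusted p = 0.61) over the 12 libraries and -0.16 (SE 0.13, adjusted p = 0.56) over the 10 samples.

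RFC2, a small subunit of the clamp loader on chromosome 25 from 33671395 to 33686225, plus strand, was at 10.0 (replicates 1 and 4), 9.05, 8.69, 9.80 and 10.999 CPM in CON and at 12.7 (replicates 1 and 3), 9.67, 12.5, 12.3 and 12.9 CPM in MET. MET replicate 2 lay among the CON samples and the other 4 MET samples above them. The mean was 9.71 ± 0.899 CPM in the CON samples and 12.03 ± 1.34 CPM in the MET samples (SD, n = 5 each). For RFC2 the log2 fold change was 0.31 (SE 0.11, adjusted p = 0.13) over the 12 libraries and 0.31 (SE 0.13, adjusted p = 0.27) over the 10 samples, with an exact permutation p of 0.0317. RFC3 had a log2 fold change of 0.29 (SE 0.13, adjusted p = 0.22), whereas RFC1, the large subunit, had one of -0.27 (SE 0.14, adjusted p = 0.31), against 0.30 and -0.21 over the 10 samples. RPA1 (-0.01), RPA2 (-0.24) and RPA3 (0.08) and the clamp loader genes RFC4 (0.02) and RFC5 (-0.09) did not pass the test either.

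FEN1 and RRM2 were the most different genes of the flap removal, ligation and dNTP group, in opposite directions. FEN1, the nuclease that trims flaps of the lagging strand, lies on chromosome 29 from 40931652 to 40936454, plus strand. FEN1 was at 7.09 (replicates 1 and 4), 6.79, 14.0, 6.98 and 9.44 CPM in CON and at 10.2 (replicates 1 and 3), 14.6, 15.7, 13.7 and 12.6 CPM in MET. CON replicate 3 lay among the MET samples, and the other CON samples lay below all of them. The mean was 8.85 ± 3.05 CPM in the CON samples and 13.3 ± 2.09 CPM in the MET samples (SD, n = 5 each). For FEN1 the log2 fold change was 0.58 (SE 0.19, adjusted p = 0.12) over the 12 libraries and 0.59 (SE 0.21, adjusted p = 0.22) over the 10 samples, with an exact permutation p of 0.0397. Without CON replicate 3 it was 0.77 and passed FDR ≤ 0.10 (adjusted p = 0.0586).

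RRM2, the subunit of ribonucleotide reductase that is made in S phase, lies on chromosome 11 from 87466580 to 87473868, minus strand. RRM2 was at 5.13 (replicates 1 and 4), 13.2, 17.2, 4.80 and 5.40 CPM in CON and at 5.16 (replicates 1 and 3), 4.10, 2.53, 3.02 and 4.43 CPM in MET. CON replicates 2 and 3 stood far above the rest, and the highest MET sample lay within the range of the 3 remaining CON samples. The mean was 9.14 ± 5.69 CPM in the CON samples and 3.85 ± 1.07 CPM in the MET samples (SD, n = 5 each). RRM2 had a log2 fold change of -1.04 (SE 0.35, adjusted p = 0.13) over the 12 libraries and -1.21 (SE 0.38, adjusted p = 0.19) over the 10 samples, with an exact permutation p of 0.0238. DESeq2 over the 10 samples gave an adjusted p of 0.0531. Its partner RRM1 was at 105 ± 9.24 CPM in CON and 96.1 ± 14.3 CPM in MET (SD, n = 5 each), a log2 fold change of -0.06 (SE 0.11). LIG1, the ligase of the lagging strand, was at 13.5 ± 1.14 and 12.1 ± 2.88 CPM (SD, n = 5 each).

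CCNE2 lies on chromosome 14 from 71807750 to 71818065, minus strand, and was counted in 13 to 61 reads per library. It was at 6.44 (replicates 1 and 4), 4.90, 5.83, 2.92 and 4.05 CPM in the CON samples and at 1.78 (replicates 1 and 3), 2.44, 1.84, 1.46 and 1.86 CPM in the MET samples. The lowest CON sample, replicate 5, lay just above the highest MET sample, replicate 2. The log2 fold change of CCNE2 was -1.44 (SE 0.22, adjusted p = 0.038) over the 12 libraries and -1.37 (SE 0.25, adjusted p = 0.16) over the 10 samples. DESeq2 over the 10 samples gave an adjusted p of 0.0015. The exact permutation p was 0.00794, the smallest that 252 arrangements of the samples allow.

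The paralog CCNE1 did not go with CCNE2. CCNE1 was at 1.34 (replicates 1 and 4), 1.13, 1.72, 0.730 and 1.56 CPM in CON and at 1.03 (replicates 1 and 3), 0.976, 2.30, 1.12 and 0.825 CPM in MET, with 7 to 20 reads per library. The diets overlapped, and the log2 fold change of CCNE1 was -0.11 (SE 0.30, adjusted p = 0.87) over the 12 libraries and -0.08 over the 10 samples. E2F1 was at 1.29 (replicates 1 and 4), 3.52, 5.38, 2.09 and 1.45 CPM in CON and at 1.92 (replicates 1 and 3), 2.83, 1.61, 2.01 and 1.75 CPM in MET. As for RRM2, CON replicates 2 and 3 were the highest, and the log2 fold change of E2F1 was -0.30 (SE 0.36, adjusted p = 0.67) over the 12 libraries and -0.40 over the 10 samples. The difference between the changes of CCNE1 and CCNE2 was not tested.

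**Figure D3:**
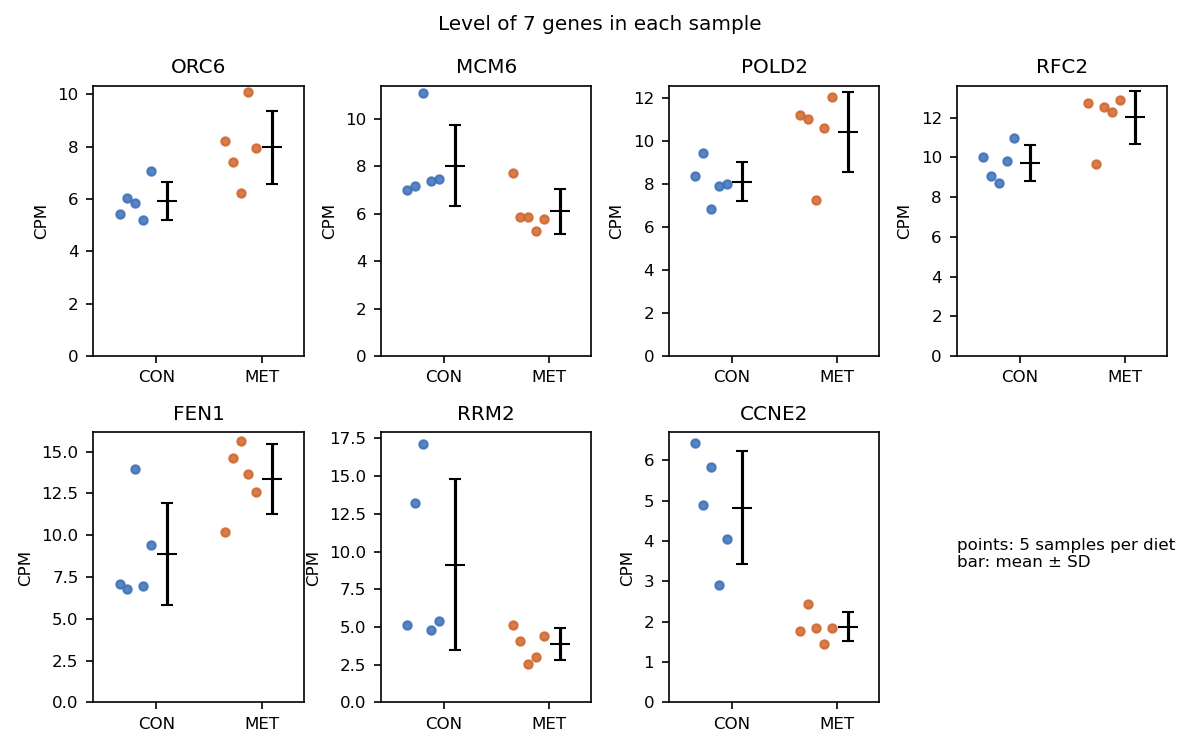
CPM (y axis, from 0) of 7 genes in the 5 CON (blue) and 5 MET (orange) samples, with mean ± SD (black). The diets do not overlap for CCNE2, and CON replicates 2 and 3 give the high values of RRM2 (13.2 and 17.2 CPM).

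Several of the genes varied together between calves. CON replicate 3 held the highest value of 10 of the 43 tested genes and the lowest of 3. CON replicate 2 held the highest value of 6 genes but also the lowest of 6. The mean log2 CPM over the 43 genes was 3.29 in CON replicate 3 against 2.93 to 3.06 in the other samples, CON replicate 2 among them. The median coefficient of variation was 17.4% among CON samples and 18.2% among MET samples. It was 62.3% for RRM2 and 62.5% for E2F1 in CON, against 27.7% and 23.5% in MET. MKI67, which encodes the Ki-67 protein of cycling cells and is not in the set, was at 22.5 and 28.8 CPM in CON replicates 2 and 3 and at 4.03 to 12.7 CPM in the other samples.

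**Figure D4:**
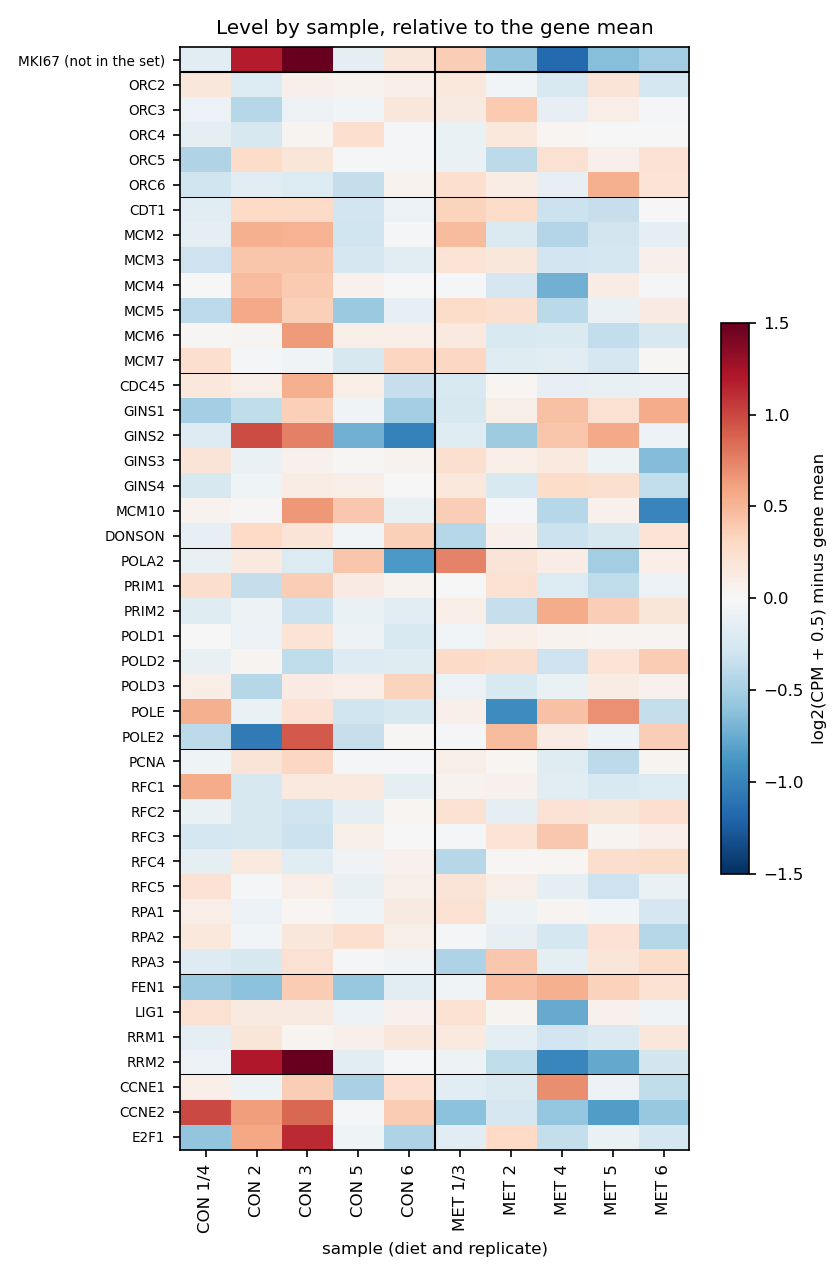
Log2(CPM + 0.5) minus the mean of the gene (colour) for MKI67 and the 43 tested genes (rows, by role) in the 10 samples (columns, CON left of the line). CON 2 and CON 3 are dark red for MKI67, RRM2 and GINS2, while most ORC, polymerase and RPA rows are pale in these samples.

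The relation to MKI67 over the 10 samples was computed after the values had been seen, for all 43 tested genes, on log2 CPM. RRM2 had Pearson's r = 0.97 (permutation p = 2e-05, adjusted over 43 relations 0.000645) and Spearman's rho = 0.98 (permutation p = 4e-05, adjusted 0.00172). MCM2 had r = 0.92 (permutation p = 3e-05, adjusted 0.000645) and rho = 0.87 (permutation p = 0.00196, adjusted 0.0421). MCM6 had r = 0.85 (permutation p = 0.00121, adjusted 0.0173) and rho = 0.84 (permutation p = 0.00371, adjusted 0.0532). PCNA had r = 0.80 (permutation p = 0.00573, adjusted 0.0411) and rho = 0.81 (permutation p = 0.00702, adjusted 0.0741). Without CON replicates 2 and 3, the samples farthest from the median of MKI67, r was 0.89 for RRM2, 0.82 for MCM2, 0.84 for MCM6 and 0.55 for PCNA. After subtraction of the diet means it was 0.94 for RRM2, 0.97 for MCM2, 0.73 for MCM6 and 0.75 for PCNA. These diet-centred values are descriptions with no test, and of these 4 genes PCNA depended most on CON replicates 2 and 3.

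The relation was less even for other genes. MCM4 had r = 0.83 (permutation p = 0.00323, adjusted 0.0278) but rho = 0.58 (permutation p = 0.0867, adjusted 0.343), and r was 0.67 without these samples and 0.73 after subtraction of the diet means. MCM3 had r = 0.74 (permutation p = 0.0138, adjusted 0.0847) and rho = 0.72 (permutation p = 0.0225, adjusted 0.138), and r dropped to 0.30 without them but was 0.91 after subtraction of the diet means. For E2F1 r was 0.69 (permutation p = 0.0262, adjusted 0.141) and rho 0.42 (permutation p = 0.234, adjusted 0.457), and r was -0.17 without CON replicates 2 and 3, so that this relation rested on them, and 0.74 after subtraction of the diet means. MCM5 and CDT1 had r of 0.89 and 0.84 after that subtraction, but their pooled relations (r = 0.62 and 0.67) did not pass the adjustment (permutation p = 0.0558 and 0.0345, adjusted 0.185 and 0.152). RFC3 ran the other way, with r = -0.84 (permutation p = 0.00248, adjusted 0.0267) and rho = -0.79 (permutation p = 0.00862, adjusted 0.0741), and r was -0.71 without the 2 samples. CCNE2 had r = 0.67 (permutation p = 0.0354, adjusted 0.152) and rho = 0.56 (permutation p = 0.0949, adjusted 0.343), and its r was 0.26 after subtraction of the diet means. Over all 43 genes, 27 had r above 0, and 6 passed an adjusted p of 0.05 by Pearson's r, RFC3 with a negative r among them. By Spearman's rho only RRM2 and MCM2 passed it. The relation was not computed for genes outside the set, so that no share of all genes can be set beside these counts.

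**Figure D5:**
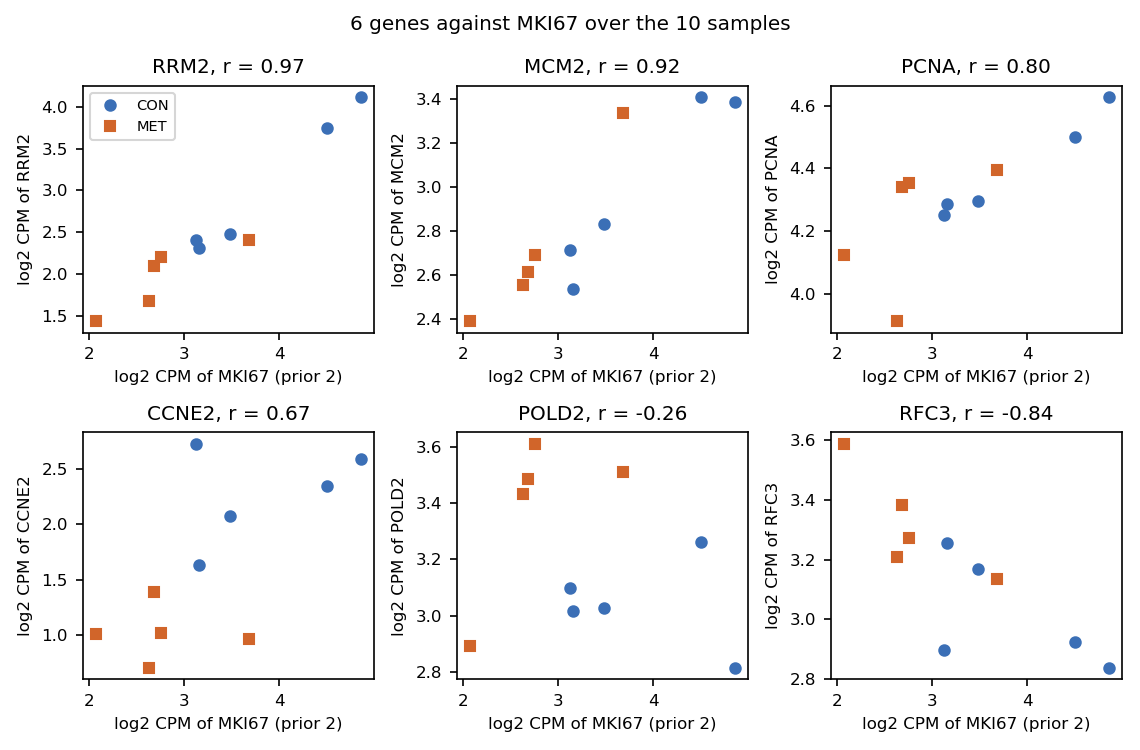
Log2 CPM (prior count 2) of RRM2, MCM2, PCNA, CCNE2, POLD2 and RFC3 (y axes) against that of MKI67 (x axes) in the 5 CON (circles) and 5 MET (squares) samples, with Pearson's r above each panel. RRM2 and MCM2 climb with MKI67 (r of 0.97 and 0.92), RFC3 declines (r of -0.84), and CCNE2 is higher in the CON samples, while 4 of the 5 MET samples lie below every CON sample in MKI67 as well.

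Genes around the set were counted in the same way. Among 33 other genes of G1/S control, 29 were tested, and only MYC, a transcription factor of cell growth, passed FDR ≤ 0.10 over the 12 libraries. MYC was at 18.9 ± 7.54 CPM in CON and 8.61 ± 3.30 CPM in MET (SD, n = 5 each) and fell, with a log2 fold change of -1.14 (SE 0.27, adjusted p = 0.068). Over the 10 samples, 7 of the 29 reached an unadjusted p ≤ 0.05, of which 1 was higher and 6 lower in MET, a share of 24.1% beside 16.3% of all genes, and the median log2 fold change of the list was -0.16. Cyclin A2 (CCNA2, -1.37) and the CDK inhibitors CDKN2C (-0.94) and CDKN1A (-0.94) had the next lowest p over the samples, with adjusted p over the 12 libraries of 0.11, 0.14 and 0.11. The 1 higher gene was E2F4, at 20.4 to 30.4 CPM in CON and 32.0 to 38.9 CPM in MET. Its log2 fold change was 0.40 (SE 0.12, edgeR adjusted p = 0.102) over the 12 libraries. It was the 1 tested gene of this list without overlap between the diets, against 3.71% of all genes.

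Among 41 other replication genes, 38 were tested, and only TYMS, which makes thymidylate, passed FDR ≤ 0.10 over the 12 libraries. TYMS was at 9.68 ± 1.74 CPM in CON and 6.25 ± 1.01 CPM in MET (SD, n = 5 each) and fell, with a log2 fold change of -0.59 (SE 0.16, adjusted p = 0.085). Over the 10 samples, 6 of the 38 reached an unadjusted p ≤ 0.05, 1 higher and 5 lower, a share of 15.8% beside 16.3% of all genes, and the median was -0.19. The chromatin assembly subunit CHAF1B (-0.98), the checkpoint scaffold TOPBP1 (-0.45) and topoisomerase TOP2A (-1.03), which is also among the mitosis markers, had the next lowest p, with adjusted p over the 12 libraries of 0.11, 0.13 and 0.18. Over the 10 samples, edgeR gave adjusted p = 0.18 for MYC and 0.18 for TYMS, and DESeq2 gave adjusted p = 0.024 for MYC and 0.053 for TYMS. DESeq2 called 4 of the 22 genes of the G1/S list and 3 of the 29 of the replication list to which it gave an adjusted p over these samples, against 5.71% of all genes. The study lists MYC and TYMS as differentially expressed in these same libraries, so that their directions are not independent evidence.

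Of 20 mitosis markers, 19 were tested and all 19 had log2 fold changes below 0 over the 12 libraries, with a median of -0.99. Over the 10 samples 18 were below 0, with PLK1 at 0.01, and the median was -1.25. CDK1 (-1.66, adjusted p = 0.077) and CCNB1 (-1.85, adjusted p = 0.072) fell, with adjusted p = 0.17 for both by edgeR over the 10 samples. DESeq2 over these samples called 7 of the 9 markers to which it gave an adjusted p (0.0057 for CDK1), against 5.71% of all genes. It gave none to the other tested markers, CCNB1 and CCNB2 among them. By edgeR, 14 of the 19 reached an unadjusted p ≤ 0.05 over the 10 samples, all lower in MET, against 16.3% of all genes and 8.52% in that direction, and KIF20A (-1.61) and CCNB2 (-1.15) had the next lowest p. CON replicates 2 and 3 were high here too, and the summed level of the list was 58.8 to 202 CPM in CON and 46.1 to 82.4 CPM in MET. The median of the markers over the 12 libraries, -0.99, stood beside -0.06 for the 43 replication genes, and this difference was not tested. The study lists CDK1, CCNB1 and PBK among its top downregulated genes from these same libraries. The marker list was chosen with such results known, so that its low median is not independent evidence.

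Markers of other cells that a biopsy can hold were read beside these values, with levels summed over all markers counted, tested or not. Of 11 Kupffer cell and macrophage markers, 3 (CD14, C1QB and C1QC) passed FDR ≤ 0.10 over the 12 libraries and rose, against 4.41% of all genes. Of the 11, 10 had log2 fold changes above 0. By edgeR, 5 reached an unadjusted p ≤ 0.05 over the 10 samples, 4 higher and 1 (MRC1) lower in MET, against 16.3% of all genes. The summed level of these markers was 1637 to 2166 CPM in CON and 2185 to 2554 CPM in MET. Among 8 lymphocyte markers tested, none passed with edgeR over the 12 libraries or reached an unadjusted p ≤ 0.05 over the 10 samples, and 7 had log2 fold changes above 0. The sum over all 12 listed was 32.1 to 65.3 CPM in CON and 53.2 to 67.02 CPM in MET. Most of that sum was PTPRC, at 20.1 to 45.4 CPM in CON and 30.4 to 42.9 CPM in MET. Of 20 erythroid markers, 5 were tested and none passed with edgeR over the 12 libraries, while TFRC and CA2 reached an unadjusted p ≤ 0.05 over the 10 samples, both lower in MET, and DESeq2 called TFRC there (adjusted p = 0.027). Their sum was 33.8 to 1002 CPM in CON and 78.6 to 487 CPM in MET. HBB, the beta-globin gene, was at 6.19 CPM in the sample of CON replicates 1 and 4 and peaked at 937 CPM in CON replicate 2, and ALAS2, the erythroid heme synthesis enzyme, reached 21.9 CPM in CON and 21.6 CPM in MET. Of the 20 markers, 3 (GATA1 and RHAG among them) were below 0.3 CPM in every sample. Stellate cell markers (11 tested, LUM lower), cholangiocyte markers (7 tested, CFTR lower) and hepatocyte markers (13 tested, APOB lower) had 1 gene each past FDR ≤ 0.10, and none of 9 endothelial markers passed, with 1 at an unadjusted p ≤ 0.05 over the 10 samples. That unadjusted threshold was met by 1 stellate, 2 cholangiocyte and 2 hepatocyte markers, all lower in MET. Over the 12 libraries, 10 of 11 stellate, 5 of 7 cholangiocyte and 8 of 13 hepatocyte markers had log2 fold changes below 0. Of the skeletal muscle markers only MYOM1 was tested and it fell, while ACTA1 and CKM were at 0 in all samples. None of these called markers passed with edgeR over the 10 samples (adjusted p = 0.17 to 0.21), while DESeq2 there called CD14, C1QB, C1QC, APOB and MYOM1 of them, and also ALB. The study also lists CD14, C1QB, C1QC, LUM, CFTR, APOB and MYOM1 as differentially expressed in these same libraries, so that their directions are not independent evidence. The part of these cells in the values of the replication genes was not tested.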

How the data were processed

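Liver RNA was sequenced in 12 libraries, labelled as 12 calves, from 1 end on 1 lane (TruSeq stranded mRNA libraries). The authors mapped the reads to UMD 3.1.1 with STAR (2.5.3a) and deposited raw read counts per Entrez gene ID from featureCounts in Subread (1.5.2). Counting was reverse-stranded, and reads mapping to several places or genes were not counted. Symbols came from a RefSeq gene table of a later assembly, and coordinates from the files. The genes and the other lists were chosen with earlier results of these data known. Genes were filtered (minimum count 10, minimum total 15), leaving 13212, scaled by TMM and tested with edgeR (4.0.16, R 4.3.3) by the quasi-likelihood test on diet alone, as the study did, with Benjamini-Hochberg adjustment over all genes. Alternatives used DESeq2 (1.42.0), limma (3.58.1) and other settings. CPM are counts scaled to a common library total after TMM. Each near-identical pair of libraries was averaged for means and SD (5 samples in each diet) and summed for tests. Whether these came from separate animals is not known, and p-values then measure only the spread between samples. Exact permutation tests were two-sided on log2 CPM (prior count 2), and correlations used 100000 permutations. Replicate numbers were not used to pair samples, since same-numbered libraries did not deviate together. The fits were tested on simulated data in which 200 genes were changed. Genes given in full were those past FDR 0.10 over 12 libraries, with an unadjusted p of at most 0.05 over 10 samples, or without overlap between the diets. PCNA, MCM2 to MCM7, CCNE1 and E2F1 were given in any case, and from other lists the called genes and up to 4 with the lowest p. Interval and floor values (3 reads) cover counting error only. No sequences were used here.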

Additional observations from a re-analysis of the deposited data

Results flagged for a closer look

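In 5 of 86 groups of 5 samples (the 43 tested genes in each diet), 1 sample lay far from the other 4 by Dixon's ratio of gap to range, where chance alone flags about 1 in 20 groups. MCM6 in CON replicate 3 was at 11.1 CPM, against 7.02 to 7.47 CPM in the other CON samples, and the sample of MET replicates 1 and 3 was at 7.74 CPM, against 5.26 to 5.87 CPM in the other MET samples. MCM2 was at 9.94 CPM in that same MET sample, against 5.07 to 6.29 CPM. RFC2 was at 9.67 CPM in MET replicate 2, against 12.3 to 12.9 CPM. CCNE1 was at 2.30 CPM in MET replicate 4, against 0.825 to 1.12 CPM in the other MET samples. Without the single high CON value, MCM6 kept its direction in the fit without CON replicate 3.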

How the results depend on the processing

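The count of called genes among the 43 (1, CCNE2) was 1 under the other scalings and filters, with robust estimation, voom or the gene length trend removed, while 107 (library size only) to 666 (upper quartile) of all genes were called in these fits. It was 4 by the likelihood-ratio test and 4 by DESeq2 (CCNE2, RRM2, FEN1 and ORC6 in both), where 914 and 1314 of all genes were called against 583 in the test reported, 0 over the 10 samples with edgeR, 2 over the 10 samples with DESeq2, and 1 to 2 in the 12 fits that left out 1 library each (26 to 565 of all genes). With a replicate block it was 0 (adjusted p = 0.126 for CCNE2), where 6 of all genes were called. Same-numbered libraries did not deviate together, with correlations of -0.190 to 0.148, and none correlated best with its own number, so that the numbers do not pair the samples. The median log2 fold change of the genes stayed below 0 in all of these fits, by less than the spread between samples (-0.085 to -0.004 with 1 library left out). Leaving out 1 of the 10 samples gave 4 to 7 genes with an unadjusted p of at most 0.05 and 1 to 3 genes without overlap, beside 12.5 to 16.7% and 4.66 to 6.91% of all genes. Of the 175 alternative values of the 7 genes given in full, none reversed and 164 kept their side of the threshold. CCNE2 passed FDR ≤ 0.10 in 23 of 25. Causes of these differences were not tested. The fits over the 10 samples both held fewer samples and summed the near-identical pairs, and these cannot be told apart here. Depth limits the low genes: ORC1, CDC6, CDT1, GINS4 and CCNE1 were counted in at most 20 reads per library.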
